A study of Mus musculus with 5 samples.

Results

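The interferon-induced transmembrane (IFITM) family was followed in sorted mouse blood-forming cells that had or had not lost the retinoblastoma (Rb) gene family. All probe sets whose platform annotation names Ifitm1, Ifitm2, Ifitm3, Ifitm5 or Ifitm6 as the only gene were taken. This gave 5 of the 45037 probe sets on the arrays, 1 for each of the 5 genes. The family, and the contrast of Ifitm6 with its 4 paralogues, were chosen because Ifitm6 was known from these arrays to differ between the groups. The differences of the members are therefore a description. How many members passed the fit over all probe sets is printed beside the share of all probe sets that passed, and supports nothing here.

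The first group, 3 arrays, had the genotype Rb -/- p130 -/- p107-/- and is called Rb family deficient. The other group, 2 arrays titled wild type, had the genotype Rb +/+ p130 +/+ p107+/-, so it carried 1 intact copy of p107. In both groups recombination was started at 6 weeks of age with Mx1Cre, a recombinase driven by an interferon-responsive promoter that acts in many cell types, and cells were collected 2 months later. The inducing agent is not named in the labels. RNA came from KLS cells, which carry c-Kit and Sca-1 and lack markers of mature blood lineages, a fraction that holds stem cells and multipotent progenitors. The study hybridised 6 arrays and left 1 out for high background. Nothing in the labels ties an array to a separate animal or pool, so every error below measures only the spread between these arrays.

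IFITM proteins are small membrane proteins, most of them induced by interferon. They sit in the plasma membrane and in endosomes and hinder enveloped viruses from fusing with the cell. In mice, Ifitm1 and Ifitm3 also mark early germ cells, and several family genes are made in stem cells without added interferon. The genes lie side by side on mouse chromosome 7. Levels below are log2 of the deposited intensity, and a difference is deficient minus wild type on that scale, so a difference of -1 is a halving.

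The annotated RefSeq order along chromosome 7 (assembly GRCm38.p6) was Ifitm5, Ifitm2, Ifitm1, Ifitm3 and Ifitm6, with Gm7514 and Gm33504 between Ifitm1 and Ifitm3. The 250 bases before the RefSeq start of 4 members are printed here, because they let the one gene that differed most, Ifitm6, be set beside the 3 bright members that did not. Capitals mark 2 letter patterns. One is GAAANNGAAA, the core of sites for interferon regulatory factors (IRF). The other is GGAANNGAAA, the core of composite sites for an ETS factor with an IRF. Both strands were searched. Each sequence runs in the direction of its gene.
Ifitm6: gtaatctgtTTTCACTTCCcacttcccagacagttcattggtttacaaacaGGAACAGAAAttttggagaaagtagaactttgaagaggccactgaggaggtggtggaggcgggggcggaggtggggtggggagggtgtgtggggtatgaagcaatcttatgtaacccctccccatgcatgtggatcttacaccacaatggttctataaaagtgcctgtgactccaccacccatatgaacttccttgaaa
Ifitm3: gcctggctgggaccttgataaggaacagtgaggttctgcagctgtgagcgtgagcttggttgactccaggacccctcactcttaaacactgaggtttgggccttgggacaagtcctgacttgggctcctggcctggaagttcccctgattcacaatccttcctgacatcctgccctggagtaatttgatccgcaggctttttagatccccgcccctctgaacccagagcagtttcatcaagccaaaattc
Ifitm2: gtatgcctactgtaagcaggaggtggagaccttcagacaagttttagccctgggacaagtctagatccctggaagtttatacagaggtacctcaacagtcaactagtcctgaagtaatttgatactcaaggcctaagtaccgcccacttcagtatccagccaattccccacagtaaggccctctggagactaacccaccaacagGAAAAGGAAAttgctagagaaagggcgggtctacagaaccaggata
Ifitm1: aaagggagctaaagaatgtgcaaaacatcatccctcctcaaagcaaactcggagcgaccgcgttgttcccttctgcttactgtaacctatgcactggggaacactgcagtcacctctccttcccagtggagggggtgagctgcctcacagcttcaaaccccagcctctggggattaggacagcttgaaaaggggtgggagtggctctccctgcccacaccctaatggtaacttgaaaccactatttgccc

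These windows lie at chr7:141016893-141017142 on the minus strand for Ifitm6, chr7:141010745-141010994 on the minus strand for Ifitm3, chr7:140955962-140956211 on the minus strand for Ifitm2 and chr7:140967826-140968075 on the plus strand for Ifitm1. The search itself covered 300 bases, these 250 and the first 50 from the start, of which only matches are printed. Ifitm6 held 2 matches to the composite pattern, 1 at 241 to 232 bases before the start as TTTCACTTCC (the reverse strand) and 1 at 199 to 190 bases as GGAACAGAAA. It held 0 matches to GAAANNGAAA. Ifitm3 held 2 matches to GAAANNGAAA, GAAAAGGAAA at bases 3 to 12 from its start and GAAACCGAAA at bases 20 to 29. Ifitm2 held 1, GAAAAGGAAA, at 46 to 37 bases before its start, and Ifitm1 held 0 of either pattern. Among all 32851 RefSeq windows of the same length, 3.44% held GAAANNGAAA and 2.71% held GGAANNGAAA.

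The pattern TTCNNNGAA, bound by STAT factors, matched once in Ifitm6, 10 to 2 bases before the start, and once in Ifitm3, at bases 14 to 22 from the start, against 8.30% of all windows. The C/EBP pattern TTGCNNCAA (2.08% of windows) and the E2F pattern GCGCGAAA (0.323% of windows) matched in 0 of the 5 members. A match is only a match of letters. A missing match says only that those letters are absent from the window.

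The arrays were close to each other, with pairwise correlations across probe sets between 0.979 and 0.993, and 0 pairs were identical. Rbl1, the p107 gene, read 5.15, 4.25 and 4.73 in deficient cells, against 8.33 and 7.16 in wild-type cells, a difference of -3.04 (SE 0.40, limma adjusted p = 0.0513 over all probe sets and 0.0266 over genes). Rb1 read 8.93, 7.77 and 8.46 in deficient cells, against 8.84 and 8.65 in wild-type cells, and Rbl2, the p130 gene, read 7.90, 7.55 and 8.07 in deficient cells, against 8.62 and 7.997 in wild-type cells. The groups overlapped for both, and where their probes lie relative to the deleted parts was not analysed here. Kit, the c-Kit gene used in the sort, averaged 11.02 ± 0.21 in deficient cells and 10.95 ± 0.18 in wild-type cells (SD, n = 3 and n = 2, as in all means ± SD below), and Ly6a, the Sca-1 gene, was not checked because no probe set has it as the single symbol. Single arrays stood apart in sex-linked genes: Xist read 12.45 on deficient array 2 and 10.67 on wild-type array 2, against 5.09 to 6.12 on the other 3, and Eif2s3y read 3.50 on deficient array 2, against 9.81 to 10.37 elsewhere. The 3' minus 5' log2 signal of a control gene is a measure of RNA integrity. For beta-actin it ran from 3.34 to 3.53 in deficient arrays, against 3.12 to 3.16 in wild-type arrays, so the groups did not overlap. For Gapdh it ran from 4.45 to 4.87 in deficient arrays, against 4.57 to 4.71 in wild-type arrays, so the groups overlapped. The part of RNA integrity in the results was not tested.

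Ifitm6 was far lower in Rb family deficient cells, and the other 4 genes of the family differed by -0.17 to 0.17. Ifitm6 is a family member known mainly from mouse macrophages. Its probe set (1440865_at) read 5.75, 5.68 and 5.59 on deficient arrays 1, 2 and 3, against 9.11 and 9.87 on wild-type arrays 1 and 2. The groups were separated by 3.36 log2 units, while the deficient arrays spanned 0.16 and the wild-type arrays 0.76. In intensity the values were 53.8, 51.3 and 48.2 in deficient cells, against 553 and 934 in wild-type cells. The difference was -3.81 (SE 0.23), a 14.1-fold lower intensity. It was the 27th largest fall among all 45037 probe sets. The deficient level was near 1 log2 unit above the medians of the arrays, which lay between 4.71 and 4.74. The authors' normalization (RMA) compresses differences of dim probe sets, so the size may be understated.

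**Figure D1:**
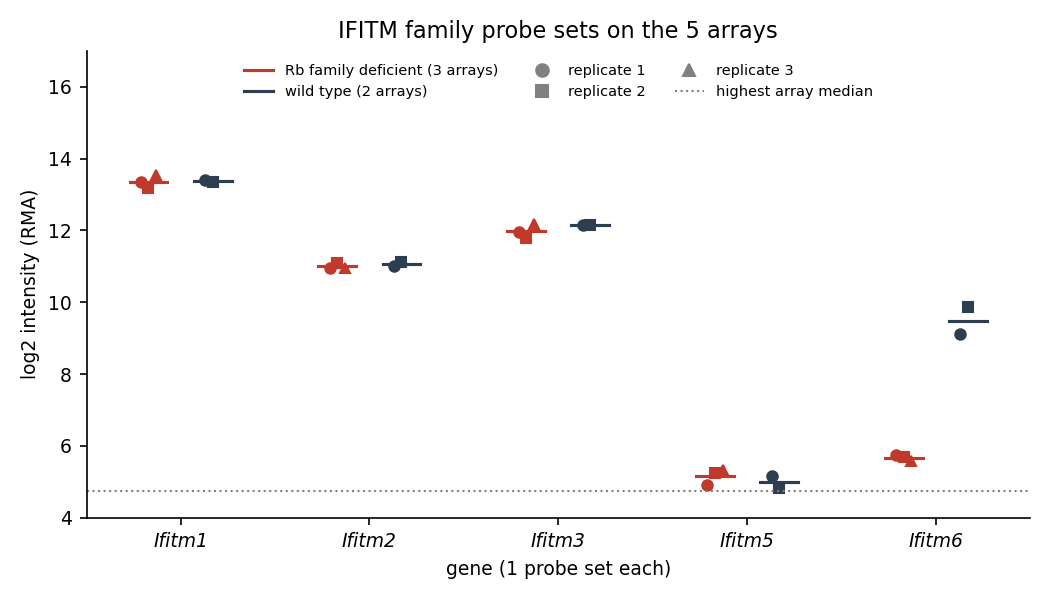
Log2 intensity (vertical axis) of the probe set of each IFITM gene (horizontal axis) on every array, with deficient arrays in red and wild-type arrays in dark blue; symbols give the replicate number, bars the group means, and the dotted line the highest array median. The 3 deficient arrays read 5.59 to 5.75 for Ifitm6 and the 2 wild-type arrays 9.11 and 9.87, while the groups overlap for the other 4 genes.

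Ifitm1, also called Leu13 or CD225 in its human form and a surface partner of tetraspanins, read 13.35, 13.18 and 13.54 on deficient arrays 1 to 3, against 13.40 and 13.36 on the wild-type arrays. The wild-type values lay inside the deficient range, and the difference was -0.02 (SE 0.14). Ifitm2, an endosomal member, read 10.96, 11.08 and 10.95 in deficient cells, against 11.01 and 11.13 in wild-type cells, a difference of -0.07 (SE 0.11). One deficient array lay between the wild-type arrays and the others just below them.

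Ifitm3, the member best known for blocking influenza virus, read 11.96, 11.80 and 12.19 in deficient cells, against 12.15 and 12.16 in wild-type cells. Deficient array 3 was the highest of the 5, so the groups overlapped, and the difference was -0.17 (SE 0.14). Ifitm5, a bone-forming cell gene also called Bril, read 4.92, 5.24 and 5.33 in deficient cells, against 5.15 and 4.83 in wild-type cells (difference 0.17, SE 0.17). Its 5 values lay close to the array medians, where a probe set carries little signal, so nothing can be read from it about a change of that gene. For Ifitm1 and Ifitm3 the order of the deficient arrays was the same, with array 2 lowest and array 3 highest. For Ifitm6 array 1 was highest and array 3 lowest.

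Of the 5 members, 1 passed an adjusted p under 0.05 as lower in the fit over all probe sets (limma, Benjamini-Hochberg), where 0.326% of all probe sets did, and 0 passed as higher, where 0.164% did. Since the members were chosen on this contrast, nothing is read from that count. Without deficient array 1 or without deficient array 3 it was 0 of 5, with an adjusted p of 0.0502 for Ifitm6 in both. Ifitm6 was chosen for its difference, so nothing is read from whether it passed. A gene-level fit (brightest probe set of each gene) is used below for all other genes. The Ifitm6 difference itself ran from -4.19 without wild-type array 1 to -3.44 without wild-type array 2, so the 2 wild-type arrays set its size. Without deficient array 2, which like wild-type array 2 stood apart in sex-linked genes, it was -3.82. The groups did not overlap, with deficient lower, on 1 member of 5, against 15.2% of all probe sets. Over all probe sets the median absolute difference was 0.14, and 10.1% of probe sets had a smaller absolute difference than Ifitm1, 29.6% than Ifitm2, 58.0% than Ifitm3 and 59.0% than Ifitm5, while 99.9% had a smaller one than Ifitm6.

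Ifitm6 was also set against its paralogues array by array. The log2 value of the paralogue was subtracted from that of Ifitm6 on the same array, and the groups were compared. This cancels anything that shifts both probe sets alike. The paralogues differed only by -0.17 to 0.17, so Ifitm6 was bound to be lower by a similar amount whichever was used. Relative to Ifitm3, its neighbour in the cluster, the 3 deficient arrays lay at -3.55, -3.46 and -3.93 from the wild-type mean, against -0.37 and 0.37 for the wild-type arrays. The group difference was -3.65 (SE 0.34). It was -3.79 (SE 0.35) relative to Ifitm1, -3.74 (SE 0.25) relative to Ifitm2 and -3.99 (SE 0.46) relative to the dim Ifitm5. Each value is the Ifitm6 difference minus that of the paralogue, so these are not separate observations. They are a description of the contrast that chose the genes.

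The genes that flank the cluster were chosen by position only. None differed by as much as Ifitm6, but Ifitm6 was chosen for its difference, so nothing is read from that. The 8 annotated genes on each side that have a probe set were compared in a fit that used the brightest probe set of each gene. Of these 16 genes, 0 passed as lower and 0 as higher in limma, where 1.41% of all 18193 genes passed as lower and 0.83% as higher. At an unadjusted p under 0.05, 4 were lower and 0 higher, where 9.86% and 8.79% of all genes were. The differences of the 16 ran from -0.68 to 0.50 with a median of -0.06, against a median of -0.01 over all genes. The groups did not overlap for 7 of the 16 as lower and for 2 as higher, where 18.6% and 16.5% of all genes, read at the brightest probe set of each, did so.

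On the side of Ifitm6, the nearest gene was B4galnt4, a glycosyltransferase gene, with 6.48, 6.28 and 7.06 in deficient cells, against 5.95 and 6.27 in wild-type cells. All deficient values lay above both wild-type values, and the difference of 0.50 (SE 0.25) did not pass (limma adjusted p = 0.365). The next genes out were Pkp3, a desmosome gene (-0.46, SE 0.18, adjusted p = 0.242), and Sigirr, an inhibitory receptor of the interleukin 1 family (-0.65, SE 0.19, adjusted p = 0.147). On the side of Ifitm5, the nearest were Pgghg (-0.02, SE 0.26), the inflammasome gene Nlrp6 (-0.18, SE 0.11) and Cox8b (0.02, SE 0.12). The lowest of the 16 was Bet1l, a vesicle transport gene, with 8.87 ± 0.17 in deficient and 9.55 ± 0.01 in wild-type cells (-0.68, SE 0.14, adjusted p = 0.0670). When every probe set of each gene was averaged, Bet1l passed (difference -0.57, SE 0.09, adjusted p = 0.0434).

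**Figure D2:**
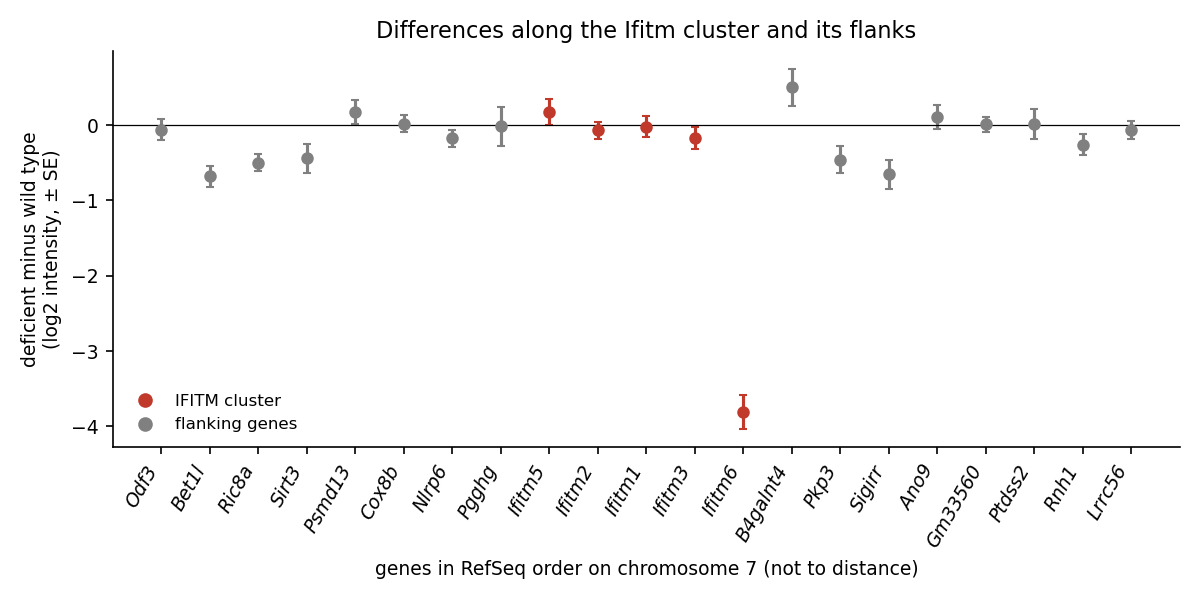
Difference in log2 intensity, deficient minus wild type (vertical axis, bars are SE from limma), for the IFITM genes in red and 16 flanking genes in grey, in RefSeq order along chromosome 7 and not to distance. Ifitm6, which was chosen for its difference, lies at -3.81 and every flanking gene lies between -0.68 and 0.50.

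Interferon-stimulated genes, the wider group to which most IFITM genes belong, had no member past the threshold, which is near the background. Of 47 measured genes of a list made mainly of type I interferon targets, 0 passed in either direction (limma), where 1.41% of all genes passed as lower and 0.83% as higher. At an unadjusted p under 0.05, 7 were lower and 0 higher, where 9.86% and 8.79% of all genes were. In 16 alternative fits 0 passed. The median difference was -0.12, and 29 means were lower and 18 higher in deficient cells. The genes with the smallest p-values were Irf9, a transcription factor of interferon signalling, with 7.92 ± 0.08 in deficient and 8.43 ± 0.15 in wild-type cells (-0.50, SE 0.12, adjusted p = 0.102), and Zbp1, a nucleic acid sensor (-0.60, SE 0.15, adjusted p = 0.112). Epsti1 differed by -0.61 (SE 0.17) and the immunoproteasome subunit Psmb9 by -0.38 (SE 0.11). The lowest difference in the list was -1.31 and the highest 0.53. Ifitm6 lay outside that range, but it was chosen for its difference, so nothing is read from that. A summed intensity over the list lay between 36517 and 39551 on the deficient arrays, against 39300 and 42375 on the wild-type arrays.

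Of 16 measured genes more closely tied to interferon gamma, 1 fell, 0 rose and 15 did not pass, where 1.41% of all genes fell. Their median was -0.31, with 10 means lower and 6 higher in deficient cells. At an unadjusted p under 0.05, 8 were lower and 1 higher, where 9.86% and 8.79% of all genes were. The one that fell was Gbp6, an interferon-inducible GTPase, with 4.77 ± 0.33 in deficient and 6.16 ± 0.23 in wild-type cells (-1.39, SE 0.22, adjusted p = 0.0385). It passed in 1 of the 5 fits that left 1 array out. Irf8, a transcription factor of monocytes, dendritic cells and B cells, averaged 10.45 ± 0.39 in deficient cells and 11.66 ± 0.04 in wild-type cells (-1.21, SE 0.23, adjusted p = 0.0599). Irf1 differed by -0.86 (SE 0.17, adjusted p = 0.0662) and Gbp2 by -0.93 (SE 0.20, adjusted p = 0.0750). Among 15 interferon receptor and signalling genes, 0 passed (limma, 3 lower and 0 higher at an unadjusted p under 0.05). The smallest p-values there belonged to Irf5 (-0.64, SE 0.20), Ifnar2, a subunit of the type I interferon receptor (-0.42, SE 0.13), Irf2 (-0.46, SE 0.16) and Irf3 (-0.23, SE 0.10), and the list median was -0.13.

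Other antiviral genes went both ways. Of 19 measured, 2 fell, 1 rose and 16 did not pass (median -0.07), where 1.41% of all genes fell and 0.83% rose. Slfn4, a Schlafen gene of myeloid cells, read 4.16, 4.53 and 4.65 in deficient cells, against 6.27 and 7.57 in wild-type cells (-2.48, SE 0.38, adjusted p = 0.0379). Slfn2, another Schlafen gene, known for keeping immune cells quiescent, averaged 6.56 ± 0.28 in deficient cells and 8.71 ± 0.54 in wild-type cells (-2.15, SE 0.27, adjusted p = 0.0242). Cgas, the sensor of cytosolic DNA, rose, with 9.84 ± 0.08 in deficient and 9.05 ± 0.18 in wild-type cells (0.78, SE 0.13, adjusted p = 0.0434). The RNA editor Adar differed by 0.46 (SE 0.13, adjusted p = 0.130). In the fits that left 1 array out, Slfn4 passed in 2 of 5, Slfn2 in 1 and Cgas in 0.

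**Figure D3:**
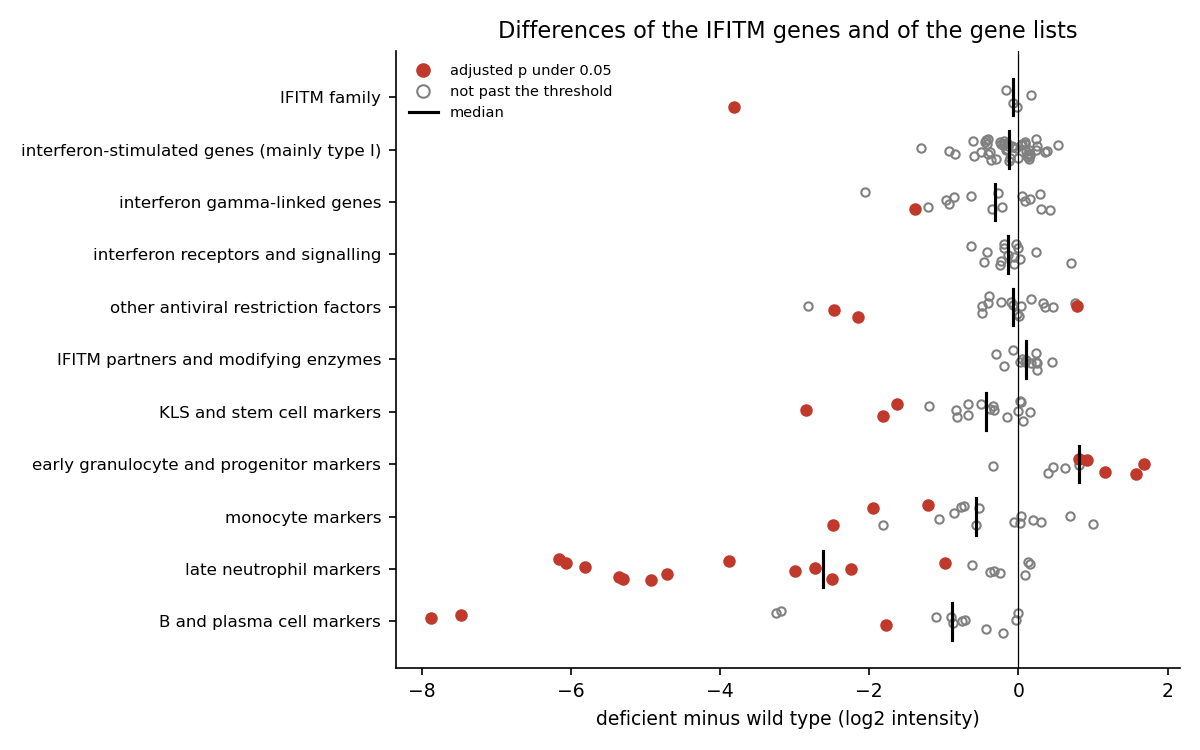
Difference in log2 intensity, deficient minus wild type (horizontal axis), of every measured gene of the IFITM family and of 10 gene lists (rows); filled red points passed an adjusted p under 0.05 in limma and black bars are medians. The point of Ifitm6 at -3.81 lies within the ranges of the late neutrophil list and of the B and plasma cell list. It lies outside the range of -1.31 to 0.53 of the interferon-stimulated genes. Ifitm6 was chosen for its difference, so nothing is read from its place.

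The proteins that IFITM proteins work with, and their relatives elsewhere in the genome, gave 0 calls (limma). At an unadjusted p under 0.05, 9.86% of all genes were lower and 8.79% higher. Of 13 partner and modifying enzyme genes, 0 were lower and 1 was higher. That gene was Setd7, a lysine methyltransferase that acts on human IFITM3, with 9.58 ± 0.22 in deficient and 9.14 ± 0.18 in wild-type cells (0.45, SE 0.17, adjusted p = 0.228). The palmitoyltransferase gene Zdhhc7 (0.25, SE 0.12), the protease gene Zmpste24 (0.23, SE 0.13) and the lipid carrier gene Osbp (0.24, SE 0.13) followed, and the list median was 0.10. Among 7 relatives outside the cluster (median 0.01; 0 in either direction at an unadjusted p under 0.05) were Ifitm7 (0.09, SE 0.11) and Ifitm10 (-0.18, SE 0.17), both below the array median on every array, Tmem91 (-0.28, SE 0.16) and Syndig1 (0.27, SE 0.21).

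Marker genes of other blood cells moved beside Ifitm6. In bulk RNA, fewer cells of a type and less RNA per cell cannot be told apart. The counts of all marker lists below stand beside these shares of all genes. Like the gene lists above, the marker lists were chosen with earlier results of these data known, so their counts are a description. In limma 1.41% fell and 0.83% rose, and 9.86% were lower and 8.79% higher at an unadjusted p under 0.05. Of 20 late neutrophil markers, 13 fell, 0 rose and 7 did not pass (median -2.61). At an unadjusted p under 0.05, 14 were lower and 0 higher. Examples were Ngp, a granule protein gene, with 7.69 ± 0.55 in deficient and 13.84 ± 0.15 in wild-type cells (-6.16, SE 0.31), S100a9 (-5.81, SE 0.35), Cd177 (-4.93, SE 0.33) and Wfdc21 (-3.89, SE 0.26). The summed intensity of the 20 ran from 8503 to 10342 on deficient arrays, against 62951 to 78184 on wild-type arrays, and 0 of them lay below the array median on every array. With 1 array left out, 8 to 10 fell, with 8 without wild-type array 2 and 8 without deficient array 3.

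Of 17 monocyte markers, 3 fell, 0 rose and 14 did not pass (median -0.56). The list went both ways, with 11 means lower and 6 higher in deficient cells and differences from -2.49 to 1.00. At an unadjusted p under 0.05, 8 were lower and 2 higher. One that fell was the transcription factor gene Klf4, with 4.29 ± 0.16 in deficient and 6.78 ± 0.59 in wild-type cells (-2.49, SE 0.25, adjusted p = 0.0148). The others were the lysozyme genes Lyz2 (-1.95, SE 0.13) and Lyz1 (-1.21, SE 0.11). The lysozyme genes are near-identical copies whose probes can share signal, and neutrophils make them too. The macrophage gene Mpeg1 differed by -1.81 (SE 0.32, adjusted p = 0.0534). Summed over the list, intensity ran from 11528 to 14296 on deficient arrays, against 24138 to 27923 on wild-type arrays. Vcan, Cx3cr1 and Clec4a3 lay below the array median on every array. Without deficient array 3, 1 fell, and without any other array 2 to 4 did.

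Early granulocyte and progenitor genes went the other way. Of 10 measured, 5 rose, 0 fell and 5 did not pass (median 0.81). At an unadjusted p under 0.05, 9 were higher and 0 lower. Csf2rb, a shared cytokine receptor subunit, averaged 10.90 ± 0.10 in deficient and 9.22 ± 0.17 in wild-type cells (1.69, SE 0.13), and Ms4a3 differed by 1.58 (SE 0.24), Gfi1 by 0.91 (SE 0.14) and the granule protease gene Ctsg by 0.81 (SE 0.13). Their summed intensity ran from 66963 to 74611 on deficient arrays, against 41261 to 50196 on wild-type arrays. Without wild-type array 2, 3 rose, and without any other array 1 did. Of 18 KLS and stem cell markers, 3 fell and 0 rose (median -0.44): Procr (-1.62, SE 0.22), Ndn (-2.85, SE 0.42) and Clec1a (-1.81, SE 0.26), while Mecom did not pass (-1.19, SE 0.33, adjusted p = 0.129). At an unadjusted p under 0.05, 7 of the 18 were lower and 0 higher. With any 1 array left out, 0 or 1 of these stem cell markers fell. Their summed intensity ran from 18555 to 20978 on deficient arrays, against 21587 to 26118 on wild-type arrays.

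Among B and plasma cell markers, 3 of 14 fell and 0 rose (median -0.89): Igha (-7.88, SE 0.19), Jchain (-7.48, SE 0.27) and Igll1 (-1.77, SE 0.23). At an unadjusted p under 0.05, 9 of the 14 were lower and 0 higher, and all 14 means were lower in deficient cells. Vpreb1 did not pass (-3.18, SE 0.64). Their summed intensity ran from 4251 to 5266 on deficient arrays, against 19667 to 32608 on wild-type arrays, with Pax5, Ebf1 and Vpreb3 below the array median throughout. With 1 array left out, 2 to 5 fell, with 5 without wild-type array 2 and 2 without deficient array 1 or 3.

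Of 14 macrophage and dendritic cell markers, 1 fell, Cd74 (-2.71, SE 0.37), and 0 rose (median -0.44). At an unadjusted p under 0.05, 8 of the 14 were lower and 0 higher. Their summed intensity ran from 1932 to 2874 on deficient arrays, against 3965 to 7793 on wild-type arrays. Without wild-type array 1, deficient array 1 or deficient array 2, 0 fell. Of 11 T and NK cell markers, 2 fell, Klrd1 (-2.36, SE 0.12) and Cd247 (-1.43, SE 0.21), and 0 rose (median -0.23). Klrd1 passed in 5 of the 5 fits with 1 array left out and Cd247 in 1. Of the 11 means, 8 were lower and 3 higher in deficient cells. At an unadjusted p under 0.05, 3 were lower and 1 higher. The summed intensity of the 11 ran from 2491 to 3271 on deficient arrays, against 1863 to 2667 on wild-type arrays. The brightest of them was Nkg7, with 11.29 ± 0.18 in deficient and 10.66 ± 0.36 in wild-type cells (0.63, SE 0.19, adjusted p = 0.152). Nkg7 also stands in the early granulocyte list, so the sum is not a measure of T and NK cells alone.

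Of 9 mast cell, basophil and eosinophil markers, 1 fell, Prg2 (-1.91, SE 0.26), and 0 rose, while 7 of the 9 means were higher in deficient cells (median 0.76; 1 lower and 6 higher at an unadjusted p under 0.05). Gata2, a transcription factor gene (0.48, SE 0.12, adjusted p = 0.109), the basophil protease gene Mcpt8 (1.35, SE 0.34, adjusted p = 0.106) and the IgE receptor subunit gene Fcer1a (2.24, SE 0.62, adjusted p = 0.127) did not pass, though for each all deficient arrays lay above both wild-type arrays. Prg2 passed in 2 of the 5 fits with 1 array left out. The summed intensity of these markers ran from 4516 to 6643 on deficient arrays, against 2633 to 3227 on wild-type arrays. Of 7 megakaryocyte markers 1 rose, Itga2b (1.19, SE 0.14; 1 of the 5 fits), and 0 fell, while 4 means were lower and 3 higher (median -0.29). The platelet genes Gp5 (0.52, SE 0.19, adjusted p = 0.223), Pf4 (-0.82, SE 0.35, adjusted p = 0.288) and Gp1bb (0.43, SE 0.19, adjusted p = 0.298) did not pass. At an unadjusted p under 0.05, 0 of the 7 were lower and 2 higher. Of 6 erythroid markers 0 passed in either direction (limma, 1 lower and 0 higher at an unadjusted p under 0.05; median -0.37). The part of these cells in the Ifitm6 difference was not tested.

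The genes whose profile over the 5 arrays was nearest to that of Ifitm6 were found by the root mean square difference of mean-centred log2 values, over 18192 genes with 1 probe set each. Because the measure uses all 5 arrays, every such gene is low in deficient cells, and tends to share the order of the arrays, by construction. The nearest was Wfdc21, a whey acidic protein gene of neutrophils, with 5.61, 6.03 and 5.67 in deficient cells, against 9.25 and 10.06 in wild-type cells (root mean square difference 0.159). Next was Lgals3, the galectin-3 gene of macrophages and other myeloid cells, with 5.96, 6.03 and 5.67 in deficient cells, against 8.96 and 9.96 in wild-type cells (0.167).

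Olfm4, a granule protein gene of a neutrophil subset, followed, with 3.49, 3.59 and 3.65 in deficient cells, against 7.51 and 7.89 in wild-type cells (0.218). Then came Igk, an immunoglobulin light chain gene (0.244), Blnk, a B cell receptor adaptor gene (0.287), Chil1, a chitinase-like protein gene (0.357), and Fpr2, a formyl peptide receptor gene of phagocytes (0.361). Il7r, the interleukin 7 receptor gene (0.401), the gelatinase gene Mmp9 (0.445) and the T cell receptor gamma segment Trgv1 (0.519) closed the 10. In deficient cells Olfm4, Igk, Blnk and Chil1 averaged 3.58, 4.26, 4.06 and 4.36, below the array medians, where a probe set carries little signal. Il7r averaged 4.76 there, close to the medians. Of the 10, 2 stand in the late neutrophil list (Wfdc21 and Mmp9), 0 in the monocyte list and 8 in no list used here.

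**Figure D4:**
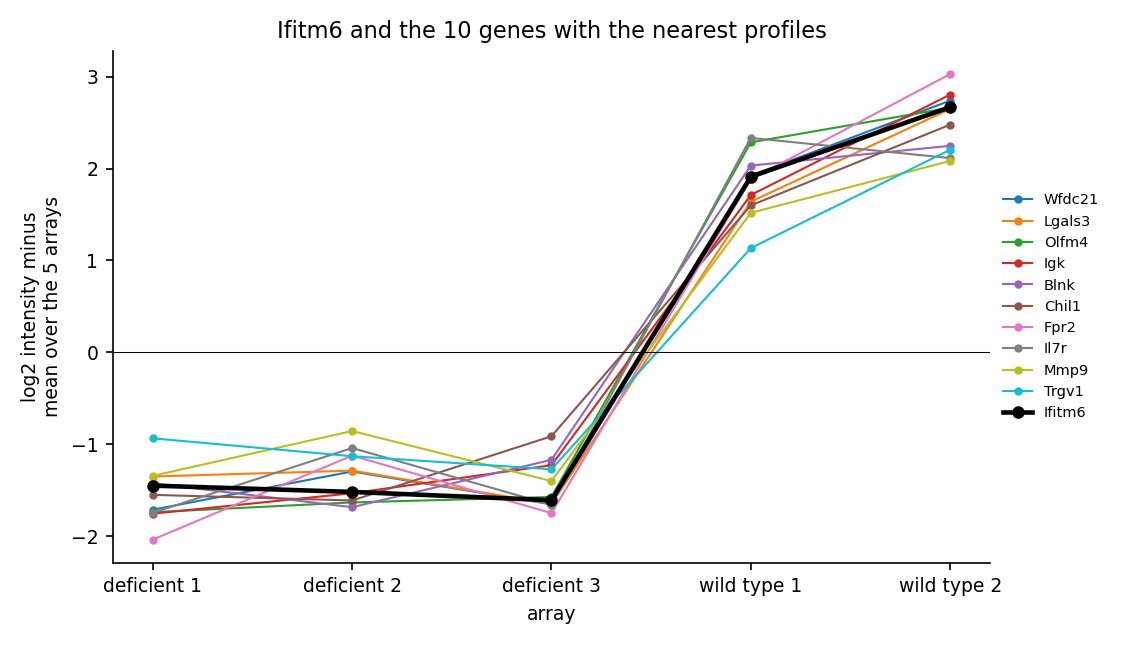
Log2 intensity minus the mean over the 5 arrays (vertical axis) on each array (horizontal axis) for Ifitm6 in black and the 10 genes with the nearest profiles in colour; lines only join the points of 1 gene. All 11 profiles are low on the 3 deficient arrays and high on the 2 wild-type arrays.

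The profiles of the bright paralogues were nearly flat, so many genes lay equally near them. The nearest to Ifitm1 were Dpf3, Mlf2, Actr1a, Yap1 and 2210407C18Rik (root mean square differences 0.014 to 0.020). Those nearest to Ifitm2 were Ndufb7, Hao2, Smim31, Serpina7 and Tmprss11g (0.0082 to 0.012). For Ifitm3 they were Ctla2a, Rbbp9, Il18r1, Synpo and Mocs1 (0.020 to 0.029). Yap1, Hao2, Smim31, Serpina7, Tmprss11g, Synpo and 2210407C18Rik had both group means below the array medians, where a profile is mostly noise. None of these 15 genes stands in a list used here.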

How the data were processed

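RNA of sorted mouse KLS cells was labelled with biotin and hybridised to Affymetrix arrays, per the labels' protocols. The deposited values are linear intensities that the authors made with RMA, per the submitters' processing notes; its version, and whether the array left out took part, are not given in the sources. RMA makes the arrays' distributions alike, which hides any global shift between the groups. The intensities ran from 6.96 to 31249, and log2 was taken here. The small number of arrays limits how precise any value is.

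Arrays were grouped by title. The 64 control probe sets were left out. Probe sets were named by GEO's platform annotation: 34945 had 1 symbol, 932 several and 9160 none. limma 3.58.1 in R 4.3.3 (lmFit, eBayes, two-sided, no covariate) was fitted over 45037 probe sets, and again over 18193 genes with the brightest probe set of each, with Benjamini-Hochberg adjustment and a threshold of 0.05. The fit was tested on simulated data. SE are those of the first fit for the members and of the second for other genes, and of a pooled two-group variance for the values relative to a paralogue.

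The members and the 17 gene lists (248 of 282 genes measured) were chosen with earlier results of these data known, and 1 of these lists is not reported here. The text names the members, the 3 targeted genes, up to 4 genes a list with the smallest p, flanking genes by position and the genes nearest in profile; Kit, Xist, Eif2s3y and Bet1l, the lowest flanking gene, were chosen after their values were seen. The motifs were chosen with the member sequences in view. Alternatives were further normalizations, filters, variance priors, array weights, 16 added before log2, a replicate block, probe sets averaged by gene, and each array left out.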

Additional observations from a re-analysis of the deposited data

How the results depend on the processing

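The Ifitm6 difference kept its direction in 15 alternative settings, from -4.19 to -3.44 over the fits with 1 array left out and -3.45 with 16 added before log2. Relative to the paralogues, the ranges with 1 array left out were -4.19 to -3.39 for Ifitm1, -4.06 to -3.42 for Ifitm2, -4.02 to -3.27 for Ifitm3 and -4.53 to -3.45 for Ifitm5, and relative to Ifitm2 it was -3.38 with 16 added. The 60 recomputed paralogue differences all moved by less than 1 SD, between -0.27 and 0.34. The count of members called lower ran from 0 to 1 with 1 array left out.

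Replicate numbers are shared between the titles, but same-numbered arrays did not deviate together (correlations -0.05 and -0.02), so the number was not used as a pairing. With the replicate block, which leaves 1 residual degree of freedom, 0 members, 0 probe sets higher, 15 lower, 0 list genes higher and 10 lower were called. Without it, 74 probe sets were higher and 147 lower, and 7 list genes were higher and 29 lower. With 1 array left out, 2 to 5 probe sets were higher and 21 to 73 lower, and 1 to 3 list genes were higher and 15 to 22 lower. An intensity trend in the variance prior gave 141 higher and 260 lower probe sets, and 16 added before log2 gave 40 and 75, with 17 list genes lower. Of the genes beside the cluster, 1 was lower when all its probe sets were averaged. Of the 10 genes nearest to Ifitm6, 5 to 10 stayed among the 10 with 1 array left out, and 9 with the mean absolute difference. The cause of these shifts was not tested.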
